A study of Rattus norvegicus with 30 samples.

Results

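DNA methylation (DNAm) is the addition of a methyl group to cytosine, in mammals mostly where a cytosine is followed by a guanine, and it takes part in how genes are switched on and off while the brain matures. In methylated DNA immunoprecipitation followed by sequencing (meDIP-seq), an antibody against 5-methylcytosine pulls methylated fragments out of sheared DNA, and a stretch where the fragments pile up is called as a peak. Described here are the stretches of the rat autosomes that carried a called peak in most control and most pair-fed animals but in few animals exposed to alcohol before birth. Peaks of all 30 animals on chromosomes 1 to 20 sharing 1 bp or more were joined into 604866 regions, and a region was selected when it held a peak in 3 or fewer of the 10 alcohol-exposed libraries, in 7 or more of the 10 control libraries and in 7 or more of the 10 pair-fed libraries. The rule was met by 743 regions, called here the PAE-lost regions. They were selected on the peak calls themselves, so the difference in calls between the groups is how they were chosen and not a finding, and it is given below without a test.

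The tissue was prefrontal cortex (PFC) of Sprague-Dawley rats, an outbred stock, at postnatal day 22, with 1 library per animal. Dams of the prenatal alcohol exposure (PAE) group drank a liquid diet with ethanol during gestation, dams of the pair-fed (PF) group received a liquid diet without ethanol in the amount that a PAE partner had eaten, and dams of the control (CON) group ate the pelleted form of that diet freely. The PF group was therefore matched to the lower intake of the PAE group without the ethanol, but PAE dams ate freely and PF dams had a restricted ration. The paper regards pair-feeding as a treatment in its own right, with hunger, disturbed feeding times and mild stress. PAE vs PF thus differs in more than ethanol. Each group held 5 litters with 1 animal labelled female and 1 labelled male. PFC is a mixture of neurons and glia, and in bulk DNA a change in the share of a cell type cannot be told apart from a change of DNAm within cells.

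Some properties of the libraries bear on every value below. Between 11548314 and 16555049 filtered fragments lay behind a library, and the number of autosomal peaks was 117648 to 208631 in CON, 113946 to 184391 in PF and 103898 to 189772 in PAE. The X and Y chromosomes went against the labelled sex in 18 of the 30 libraries: 7 libraries had 2.65% to 3.14% of their peaks on X and 4 to 11 peaks on Y, and only 2 of these were labelled female, while the other 23 had 0.774% to 1.15% on X and 38 to 87 peaks on Y. The 7 were CON replicates 8 and 10, PF replicates 5 to 8 and PAE replicate 1, so sex by X and Y peaks was not balanced between the groups. Such a conflict puts the litter and group labels of all libraries in doubt as well as the sex, and the peak tables offer no check of them. The labels were kept as deposited, and values are also given for the 12 libraries without this conflict. A matching sex does not show that the other labels of these 12 are right. The libraries were spread over 5 sequencing lanes, of which lane 7 held no PAE library and lane 4 no PF library.

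The PAE-lost regions made up 0.211% of the 352026 regions called in at least 3 libraries. Each was called in 15 to 23 libraries, with a median of 18, and they were 1.29% of the 57792 regions called in that many libraries, which serve below as the regions of similar frequency. Exchanging the names of the groups in the same rule gave 351 regions lost only in CON and 316 lost only in PF, both fewer than the 743 lost only in PAE. In the opposite direction, 387 regions were called in 7 or more PAE and in 3 or fewer CON and PF libraries, against 709 for PF and 1054 for CON. These gained counts were in the order of the mean number of autosomal peaks, 151576 ± 26759 in CON, 143998 ± 19297 in PF and 135828 ± 26494 in PAE (SD, n = 10 each). When every library was reduced to the 103898 peaks with its lowest q-values, the number in the smallest library, 327 regions were lost only in PAE, 419 only in CON and 265 only in PF, so PAE no longer had the most, and 144 of the 743 regions still met the rule.

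**Figure D1:**
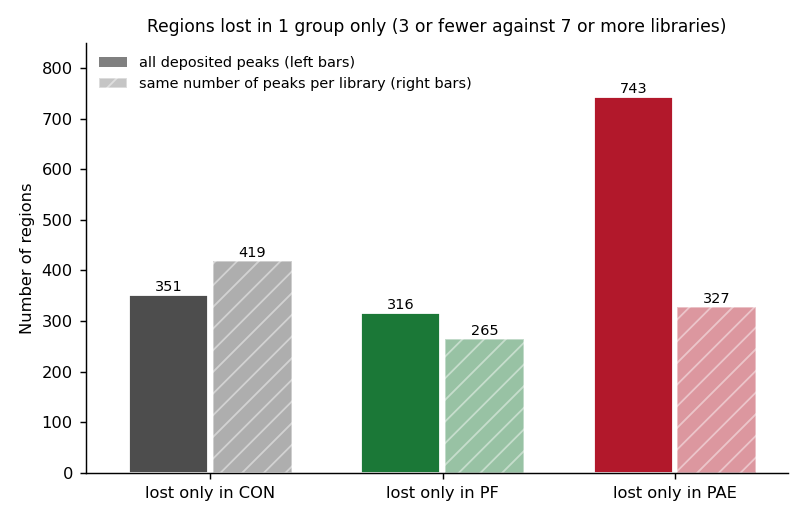
Number of autosomal regions lost in 1 group only (called in 3 or fewer of its 10 libraries and in 7 or more of each other group), with all deposited peaks (left bars, solid) and with the same number of peaks kept in every library (right bars, hatched). With all peaks the 743 regions lost only in PAE exceed the 351 of CON and the 316 of PF, and with equal peaks the 327 of PAE lie between the 265 of PF and the 419 of CON.

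Most of the PAE-lost regions sat near the limits of the rule. A call was present in 3 PAE libraries at 546 regions, in 2 at 157 and in 1 at 40, and none of the regions lacked a call in all 10 PAE libraries. On the other side, 416 regions were called in exactly 7 CON libraries and 406 in exactly 7 PF libraries, whereas 18 were called in all CON and 26 in all PF libraries. The mean number of libraries called per region was 7.60 in CON, 7.64 in PF and 2.68 in PAE, against 6.38, 6.33 and 5.91 in the regions of similar frequency. CON had more calls than PF at 202 regions, PF had more than CON at 222, and the numbers were equal at 319. The 156 regions exactly at the limit (3 PAE, 7 CON and 7 PF libraries) had called peaks with a median normalized height of 0.866 in CON, 0.805 in PF and 0.817 in PAE. The 809 regions that missed the rule by 1 library had medians of 0.860, 0.804 and 0.803, and 317 of them missed it through having 4 PAE calls.

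Normalized height is the highest pileup of fragments in the region per 1000000 filtered fragments, and a library without a called peak was given a floor of 0.438, since coverage under the calling threshold is not in the peak tables. Called peaks under the floor, 370 of 13313 at the PAE-lost regions (2.78%), were raised to it as well. The size of every log2 difference below depends on this floor: with no peak set to 0 and a pseudocount of 0.1, the 44 PAE differences at the named regions were 2.02 to 8.37 times as large (median -2.29 in place of -0.76). Where a peak was called, heights before the floor had medians, over all called peaks of the PAE-lost regions, of 0.863 in CON, 0.804 in PF and 0.825 in PAE. Within a region, the median height of the called PAE peaks was below that of the called CON and PF peaks at 395 of 743 regions, and the median ratio of these heights was 0.979. These heights exist only for peaks past the calling threshold, and whether a peak was called is what chose the regions. The peaks were low: the median pileup was 12 fragments, as in all tested regions, the median called height of a region was under 1 at 584 regions (78.6%) and between 1 and 2 at 157, and 8.29% of the calls had a q-value between 0.01 and 0.05, compared with 7.76% in the regions of similar frequency.

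Across libraries, the share of the 743 regions with a called peak was 56.1% at the lowest, 75.3% at the median and 89.8% at the highest in CON, and 68.9%, 75.4% and 85.3% in PF. In PAE it was 15.5%, 22.1% and 60.7%. The means were 76.0% ± 9.27 (SD, n = 10) in CON, 76.4% ± 4.82 (SD, n = 10) in PF and 26.8% ± 14.2 (SD, n = 10) in PAE, and only the highest PAE library reached into the range of CON. In the regions of similar frequency, which were not chosen by group, the same libraries had means of 63.8% ± 7.33, 63.3% ± 6.28 and 59.1% ± 9.77 (SD, n = 10 each), and the 3 groups overlapped.

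**Figure D2:**
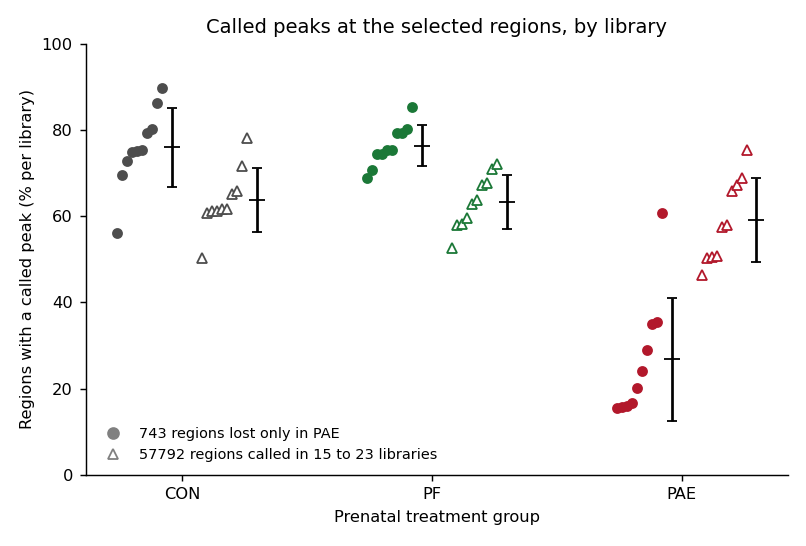
Percent of regions with a called peak in each library, by prenatal treatment group, for the 743 PAE-lost regions (filled circles) and for the 57792 regions called in 15 to 23 libraries (open triangles), with mean and SD over 10 libraries. At the PAE-lost regions 9 PAE libraries sit between 15.5% and 35.4%, under all CON and PF libraries, and 1 PAE library is at 60.7%. In the other regions the groups overlap.

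The PAE library at 60.7% was PAE replicate 2 (labelled female, litter E2, lane 8). It had 189772 autosomal peaks, the most in its group, and a call at 451 of the 743 regions, which was 22.6% of the 1992 PAE calls there. At 18 regions it was the only PAE library with a call. Its littermate, PAE replicate 7, was sequenced on the same lane, had 109013 peaks and a call at 16.7% of the regions. Without PAE replicate 2 the PAE mean was 23.0% (15.5% to 35.4%, n = 9). Peak number and calls moved together in the other libraries as well: the 4 PAE libraries with the fewest peaks (103898 to 118466) were called at 15.5% to 16.7% of the regions, and the 3 with 148978 to 153999 peaks at 29.1% to 35.4%. PF replicate 5, with 113946 peaks, was called at 70.8% of the regions, a level that the rule asked of PF libraries. The part of peak number in these calls was not tested. With 103898 peaks kept in every library, the share was 49.7% to 61.4% in CON (mean 55.4% ± 3.38, SD, n = 10), 54.4% to 65.1% in PF (57.1% ± 3.36, n = 10) and 12.9% to 38.5% in PAE (20.2% ± 7.65, n = 10), over the same 743 regions and so with the groups set apart by the choice of regions.

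**Figure D3:**
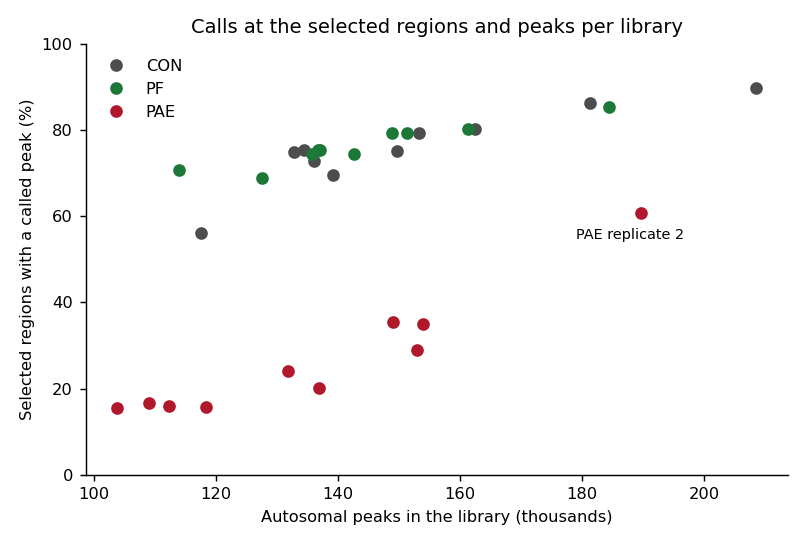
Percent of the 743 PAE-lost regions with a called peak against the number of autosomal peaks in the library, in units of 1000, 1 point per library, coloured by group. Libraries with more peaks tend to have more calls, and PAE replicate 2, with 189772 peaks and 60.7%, stands apart from the other PAE libraries.

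Calls also differed by sequencing lane. On lane 4 the mean share of PAE-lost regions called was 66.8% in 3 CON and 17.8% in 2 PAE libraries. On lane 8, which had the libraries with the most peaks, it was 88.0% in 2 CON libraries, 85.3% in 1 PF library and 37.5% in 3 PAE libraries. The PAE libraries were lower on lane 5 (29.7%, n = 2, against 75.5% in 1 CON library and 73.8% in 4 PF libraries) and on lane 6 (20.2%, n = 3, against 72.9% in 1 CON library and 74.6% in 3 PF libraries). These lower PAE shares follow from the rule and say nothing about lane, whose part was not tested. Among animals labelled female the means were 75.0% in CON, 75.0% in PF and 31.1% in PAE (n = 5 each), and among those labelled male 76.9%, 77.8% and 22.5% (n = 5 each). In the 12 libraries whose X and Y peaks went with the label they were 78.0% in CON (n = 3), 76.5% in PF (n = 3) and 22.7% in PAE (n = 6). Applying the rule to these 12 libraries alone, with the limits as shares (30% and 70%), gave 294 regions, of which 77 were among the 743. With 3 CON and 3 PF libraries, these limits asked for a call in all of them.

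With at most 3 PAE calls per region, the rule itself left few PAE littermates to share a call, and the values by litter are given as a description. Both littermates were called at 3.10% of the regions in litter E1, 3.36% in E3, 3.77% in E9, 4.58% in E6 and 8.21% in E2, compared with 40.2% to 69.0% in the CON litters and 50.2% to 67.6% in the PF litters. At least 1 littermate was called at 36.7% to 69.2% of the regions in the PAE litters, and at 91.0% to 98.3% in the CON and PF litters. No region was lost in every PAE litter. The PAE calls came from 1 litter at 58 regions, from 2 litters at 292 and from 3 litters at 393. When a litter was counted as called if either littermate was, with limits of 1 PAE litter and 4 CON and PF litters, 1351 regions were found and 58 of them were among the 743.

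The 12 regions with the largest gap in calls were spread over 8 chromosomes and were called in 1 or 2 PAE libraries. All positions are given on Rn6, the build of the peak tables. Genes could be given only from the study's own annotation, and it gave none for these 12. That annotation holds only regions that the study reported as differing between these groups of animals, and not all regions. The largest gap belonged to chr3:105738577-105739120, which was called in 8 CON, 10 PF and 1 PAE libraries. Its normalized height was 0.438 at the lowest, 0.834 at the median and 0.988 at the highest in CON, 0.459, 0.766 and 1.03 in PF, and 0.438, 0.438 and 0.681 in PAE. The PAE peak lay in PAE replicate 2 and fell within the heights of the other groups. The difference fitted over all animals, with labelled sex and lane in the model, was -0.67 ± 0.194 (log2, SE, n = 10 per group) for PAE vs CON and -0.64 ± 0.195 for PAE vs PF.

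A region on chromosome 4, chr4:157821142-157821794, had the lowest difference of the 12 for PAE vs CON. It was called in 8 CON, 8 PF and 1 PAE libraries, with heights of 0.438, 1.10 and 1.80 (lowest, median and highest) in CON, 0.438, 0.925 and 1.51 in PF, and 0.438, 0.438 and 0.953 in PAE. Every called CON peak there, from 0.964 upward, was above the single PAE peak, again that of PAE replicate 2, whereas the PF peaks started at 0.854. The differences were -1.22 ± 0.251 for PAE vs CON and -0.95 ± 0.251 for PAE vs PF.

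At chr9:15798422-15799049 the PAE calls came from replicates 9 and 10 and not from replicate 2. It was called in 9 CON, 10 PF and 2 PAE libraries, with median heights of 1.16 in CON, 0.892 in PF and 0.438 in PAE and a highest PAE height of 1.15, inside the range of both other groups. The differences were -1.06 ± 0.226 for PAE vs CON and -0.77 ± 0.226 for PAE vs PF. At chr1:36755070-36755627, with 9 CON, 10 PF and 2 PAE calls, they were -0.80 ± 0.208 and -0.64 ± 0.209, and the highest of the 10 PAE heights (1.23, PAE replicate 2) was above the highest PF height of 1.11 but below the highest CON height of 1.63.

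The other 8 of these regions were chr1:105760665-105761131, chr3:3368504-3369194, chr3:79075055-79075538, chr6:110458145-110458674, chr9:13572223-13572849, chr10:64431580-64432118, chr11:27028596-27029141 and chr15:31898619-31899234. Among them, chr3:3368504-3369194 was called in all 10 CON libraries, with 9 in PF and 2 in PAE, and showed the weakest difference for PAE vs PF, -0.40 ± 0.232. Both PAE differences were below -0.70 (log2) at chr6:110458145-110458674 with -0.72 and -0.82, chr10:64431580-64432118 with -0.81 and -0.75, and chr15:31898619-31899234 with -0.80 and -1.01. The last of these varied most, with an SE of 0.372 for PAE vs CON and heights from 0.438 to 3.05 in CON, and its only PAE peak, in PAE replicate 1, was 2.26 high, above every PF peak (highest 1.92). PAE replicate 2 held a call at 6 of the 12 regions, and at 3 of them it was the only PAE library with one.

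**Figure D4:**
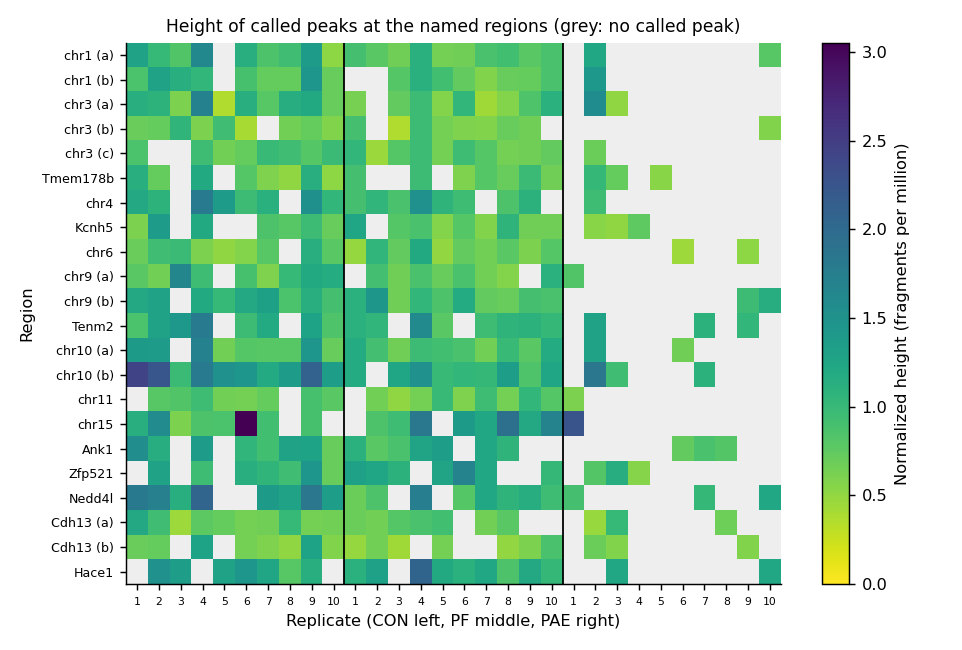
Normalized height (per 1000000 fragments, colour) of the called peaks at 22 named PAE-lost regions (rows, in genome order and named by gene or by chromosome with a letter) in each library (columns, CON replicates 1 to 10 at the left, PF in the middle, PAE at the right), with grey where no peak was called. Each row has 7 to 10 coloured cells in CON and in PF, as the rule required, and 1 to 3 coloured PAE cells, many of them in PAE replicate 2.

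For 13 of the 743 regions the study's lists of differing regions hold a region with the same start and end. Of these, 6 were assigned to a gene, each time to an intron. A further 3 regions lay between listed regions of a single gene. The genes below thus come from regions that the study had itself picked from these same data. The largest PAE vs PF difference in this set was in Hace1, which encodes an E3 ubiquitin ligase, an enzyme that tags proteins for degradation. The intronic region chr20:50759409-50759874 was called in 7 CON, 9 PF and 2 PAE libraries. Its heights were 0.438, 1.19 and 1.51 (lowest, median and highest) in CON, 0.438, 1.15 and 2.07 in PF, and 0.438, 0.438 and 1.22 in PAE. The called PAE peaks, in replicates 3 and 10, were both 1.22 high, near the median called peak of CON (1.29) and PF (1.20). The differences were -0.97 ± 0.257 for PAE vs CON and -1.39 ± 0.257 for PAE vs PF.

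Another E3 ubiquitin ligase gene, Nedd4l, known for removing ion channels from the cell surface, held chr18:60706239-60706654 in an intron, called in 8 CON, 8 PF and 3 PAE libraries. Its median heights were 1.37 in CON, 0.902 in PF and 0.438 in PAE, and the highest PAE height of 1.22 was inside the range of the other groups (to 2.06 in CON and 1.75 in PF). It differed by -0.99 ± 0.297 for PAE vs CON and by -0.57 ± 0.297 for PAE vs PF. CON and PF differed by -0.42 ± 0.307 (PF vs CON) at the same place. The paper names Nedd4l for a region shared by PAE and PF against CON, not for a PAE-specific one. In Kcnh5, a voltage-gated potassium channel gene expressed in brain, chr6:97981432-97982019 was called in 7 CON, 9 PF and 3 PAE libraries with differences of -0.51 ± 0.224 and -0.64 ± 0.224. PAE calls at this region came from replicates 2, 3 and 4, which are 3 animals labelled female whose X and Y peaks went against that label.

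Zfp521, the gene of a zinc finger transcription factor that acts in early neural differentiation, held chr18:5068496-5069047, with calls in 7 CON, 7 PF and 3 PAE libraries and differences of -0.80 ± 0.294 for PAE vs CON and -0.81 ± 0.294 for PAE vs PF. Ank1, which encodes an ankyrin that ties membrane proteins to the spectrin skeleton, held chr16:73801586-73802489, with 8 CON, 7 PF and 3 PAE calls and differences of -0.81 ± 0.278 and -0.58 ± 0.279. Here the PAE calls were all from animals labelled male, replicates 6, 7 and 8, and none from replicate 2. Their X and Y peaks were like those of the PAE libraries called at the Kcnh5 region, so no difference by sex is read from these calls. In Tmem178b, a gene of a transmembrane protein, chr4:67950107-67950896 had 8 CON, 7 PF and 3 PAE calls and smaller differences, -0.43 ± 0.212 and -0.38 ± 0.212.

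The regions between listed regions of a gene were at Tenm2, a teneurin of synaptic cell adhesion, and Cdh13, a cadherin anchored to the membrane by a lipid. Tenm2 held chr10:21120599-21121933, with 8 CON, 8 PF and 3 PAE calls and differences of -0.76 ± 0.284 and -0.76 ± 0.285. Cdh13 held 2 PAE-lost regions. The first, chr19:51585472-51586347, was called in 10 CON, 7 PF and 3 PAE libraries and differed by -0.49 ± 0.200 and -0.33 ± 0.201. The second, chr19:51860809-51861508, was called in 8, 7 and 3 libraries and differed by -0.43 ± 0.199 for PAE vs CON but by only -0.09 ± 0.199 for PAE vs PF, less than its SE, with a median PF height of 0.491 that was near the floor.

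Some further regions were picked after their values were seen. The longest, chr10:98550454-98553010 (2557 bp), was called in 10 CON, 9 PF and 3 PAE libraries, with heights of 0.977, 1.48 and 2.42 in CON, 0.438, 1.10 and 1.51 in PF, and 0.438, 0.438 and 1.84 in PAE. Its differences were -1.33 ± 0.194 for PAE vs CON and -0.85 ± 0.194 for PAE vs PF, and PF was itself lower than CON by -0.49 ± 0.201. Only chr7:75762692-75763798 and chr18:59190199-59190890 were called in all 10 CON and all 10 PF libraries, each with 3 PAE calls. They differed by -0.68 ± 0.183 and -0.73 ± 0.244 for PAE vs CON, and by -0.67 ± 0.184 and -0.55 ± 0.244 for PAE vs PF. At the other end, chr17:28166713-28167508 met the rule with 9, 7 and 3 calls although its median height was at the floor in all 3 groups (differences of 0.02 ± 0.068 and 0.05 ± 0.068).

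A small set of regions had no called peak near the floor. At 22 of the 743 regions (2.96%) every called peak was at least 2 times the floor. This share was not taken over other regions, and coverage in libraries without a call is not known. Many of these peaks were not high: the lowest was 0.879, against a median of 0.846 over all called peaks of the 743 regions. The clearest was chr16:21045582-21046012, 431 bp long, where the called peaks were 2.57 to 4.98 high and 13 libraries had none. In CON the heights were 4.85, 4.25, 4.46 and 2.58 in replicates 1, 2, 4 and 5 and 4.18, 3.76, 3.51 and 4.98 in replicates 6 to 9, with no peak in replicates 3 and 10. In PF they were 4.06, 3.14 and 4.85 in replicates 2, 3 and 4 and 3.30, 3.71, 3.77 and 3.73 in replicates 6, 7, 8 and 10, with no peak in replicates 1, 5 and 9. In PAE only replicates 1 and 4 had a peak, 2.57 and 3.99 high. At this region the libraries therefore fell into those with a peak far above the floor and those with no called peak, in each group. The heights of the called peaks overlapped between the groups. Both littermates had the peak in 5 litters, 1 littermate in 7 litters and neither in 3 litters. The fitted difference was the lowest of all 743 regions, -1.55 ± 0.584 for PAE vs CON and -1.49 ± 0.585 for PAE vs PF, with the largest spread to match. A region on chromosome 17, chr17:13466469-13467200, was of the same kind, with called peaks of 1.34 to 4.54 in 7 CON, 7 PF and 3 PAE libraries. For none of the 22 regions could a gene be given from the study's lists of differing regions.

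Over all tested regions, log2 normalized height was fitted with limma. At the PAE-lost regions these estimates rest on the values that chose the regions and are given as a description. The median difference was -0.49 for PAE vs CON and -0.43 for PAE vs PF (median SE 0.234 in both), against -0.05 and -0.02 in all tested regions and -0.11 and -0.05 in the regions of similar frequency. The difference was below 0 in both at 734 of the 743 regions, against 42.4% of all tested regions. It was past 1.5-fold in both at 120, a count not taken over all tested regions. It was below -1 in both only at chr16:21045582-21046012 and at chr5:153774803-153775639 (8 CON, 7 PF and 1 PAE calls, -1.01 ± 0.270 and -1.06 ± 0.271). The 2 comparisons share the PAE libraries.

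**Figure D5:**
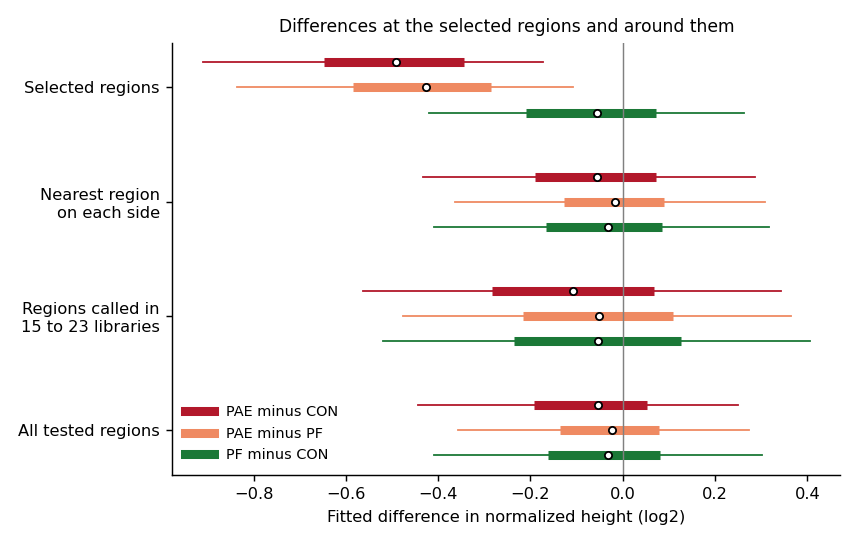
Fitted differences in normalized height (log2) of PAE minus CON, PAE minus PF and PF minus CON for the 743 PAE-lost regions, the 1486 nearest other tested regions beside them, the 57792 regions called in 15 to 23 libraries and all 352026 tested regions, with the median (point), the interquartile range (thick bar) and the 5th to 95th percentile (thin line). The PAE differences of the PAE-lost regions, which chose them, are centred at -0.49 and -0.43, and the neighbouring regions lie at -0.06 and -0.02, near all tested regions.

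At a false discovery rate (FDR) of 0.05, 1 of the 743 regions was called for PAE vs CON, with limma and Benjamini-Hochberg adjustment over all tested regions, and that region, chr10:98550454-98553010 (adjusted p = 0.0366), was also the only call among all regions (0.000284%). It was called in 7 of the 30 fits that left out 1 library. No region was called with no lane term, with a pseudocount of 0.1, with quantile normalization or without the libraries of lane 7, which held no PAE library. The same region was close to the limit for lane as well (adjusted p = 0.0575, limma F test over the lane terms). Its PAE peaks lay in replicates 2, 3 and 7 of litters E2 and E3, which were all 3 PAE libraries on lane 8. No PAE library on another lane had a called peak there. The part of lane in these PAE calls was not tested. At an unadjusted p under 0.05 there were 386 of the 743 regions for PAE vs CON, where the share over all regions was 7.37%, and 268 for PAE vs PF, where it was 4.46%. No region of the genome passed the FDR for PAE vs PF (0%, smallest adjusted p at these regions 0.988). Because the rule used these contrasts, nothing is read from these shares.

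CON and PF were each required to be called in most libraries, so the rule did not ask them to differ. The median PF vs CON difference at the PAE-lost regions was -0.06, with 457 of the 743 below 0 (61.5%, against 57.6% in all tested regions). The PF vs CON comparison reached the FDR at none of them and nowhere else (0%, limma), and 18 (2.42%) had an unadjusted p under 0.05, less than the 6.46% over all regions. The limits on both groups leave little room for them to differ. For lane, adjusted for group and labelled sex, none of the PAE-lost regions was among the 113 regions called (0.0321%), and 119 of the 743 (16.0%) had an unadjusted p under 0.05, near the share over all regions of 13.6%.

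The tested regions beside the PAE-lost regions had differences near those of all tested regions. This cannot show whether the PAE-lost regions stand alone, because they were chosen for their difference and neighbours that met the rule were left out. The neighbours were also called in few libraries, so most of their heights were at the floor, which keeps differences small. The nearest other tested region on each side (1486 regions, at a median distance of 4466.5 bp) had a mean of 3.96 CON, 3.76 PF and 3.65 PAE libraries called, close to the means of all tested regions of 3.89, 3.73 and 3.51. Their median difference was -0.06 for PAE vs CON and -0.02 for PAE vs PF. They were lower in PAE in both comparisons at 597 regions (40.2%), compared with 42.4% of all tested regions. The 194 neighbours within 1000 bp showed no larger shift (median -0.05 for PAE vs CON and -0.00 for PAE vs PF, 36.6% lower in both).

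The length of the PAE-lost regions ran from 300 to 2557 bp, and the median was 691 bp, against 670 bp in the regions of similar frequency and 544 bp in all tested regions. A called peak was 341 bp long at the median and covered 55.9% of its region. At 91 regions (12.2%) some library had more than 1 peak, against 10.7% and 5.12% in the other sets. Summits of the called peaks within a region were spread with a median SD of 84.9 bp, so libraries counted as called did not always have the peak at the same spot. With a call counted only where peaks covered at least 50% of the region, 480 regions met the rule and 177 of them were among the 743.

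The regions lay on all 20 autosomes, from 19 on chromosome 11 to 79 on chromosome 1. As a share of the regions of similar frequency, they ran from 0.823% on chromosome 10 (25 of 3038) to 1.74% on chromosome 8 (52 of 2990) and on chromosome 12 (30 of 1727). Neighbouring PAE-lost regions were 2038530 bp apart at the median, and only 2 pairs lay within 20000 bp of each other. The closest pair was chr7:124031506-124032401 and chr7:124035178-124035851, 2776 bp apart, each called in 7 CON, 7 PF and 3 PAE libraries, with small differences of -0.33 ± 0.218 and -0.35 ± 0.186 for PAE vs CON. The densest stretch of 2000000 bp held 5 regions, on chromosome 3 between 172086522 and 173992196.

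At stricter limits of 2 or fewer PAE and 8 or more CON and PF libraries, 34 regions on 15 chromosomes remained. Their median difference was -0.67 for PAE vs CON and -0.57 for PAE vs PF. A call in PAE replicate 2 was present at 18 of these 34 regions, and the 12 regions with the largest gap were all among them.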

How the data were processed

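meDIP-seq libraries of 30 rats were analysed. Reads had been mapped to Rn6 by the authors using BWA and filtered with samtools, and each library had its peaks called by MACS2 (version 2.1.4 per the file headers) from paired ends, with no control library and a q-value limit of 0.05. The deposited signal of a peak is its pileup, the coverage at its highest point, not scaled for depth. The deposited −log10 q-value served the stricter threshold of 0.01. The later steps of the study begin from reads, which were not used here. Group, litter, labelled sex and lane came from the labels.

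Peaks on the 20 autosomes were merged at 1 bp overlap. Heights were scaled to 1000000 fragments, with a floor of 0.438 for libraries without a peak and for called peaks under it. Log2 heights of regions called in at least 3 libraries were fitted with limma 3.58.1 (R 4.3.3) on group, labelled sex and lane, with a trended prior variance and Benjamini-Hochberg adjustment over all 352026 regions at 0.05. limma was used because pileup is not a read count. The fit was also run on simulated normal values with no floor, lane or litter effect. That run checked the code only, not how the model suits these heights. Merging and figures used Python 3.11.15, numpy 2.4.6, pandas 2.3.3 and matplotlib 3.10.9. Both the regions and every list were chosen with earlier results of these data known. Named were the 12 regions with the largest gap in calls (CON plus PF minus 2 times PAE, ties by the lower mean difference), and those at or between regions that the study's annotation gives for a gene. That annotation covers only regions that the study reported as differing between groups, and gene symbols and features alone were used from it. Other regions were named after their values were seen. The precision of a height is limited by its pileup, and the spread covers these libraries. Littermates share a dam, and their correlation in the fit was -0.03 over 10000 regions. Alternatives were other limits, the stricter q-value, region coverage, equal peak numbers, litters as units, subsets of libraries, leaving out each library and other fits.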

Additional observations from a re-analysis of the deposited data

Results flagged for a closer look

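Among 69 sets of 10 libraries, 19 values lay far from the other libraries of their group (gap to the nearest value over the range above 0.466, Dixon's limit, which chance passes in about 1 of 20 sets). A PAE group with calls in 1 to 3 libraries was required by the choice of regions, so the 15 flagged PAE heights go with the way the regions were chosen and their number is no finding. PAE replicate 2 had a peak at 60.7% of the PAE-lost regions, and the next PAE library at 35.4%. The same library was far above the other PAE libraries in normalized height at chr1:36755070-36755627 (1.23), chr1:105760665-105761131 (1.43), chr3:3368504-3369194 (1.57), chr3:105738577-105739120 (0.681), chr4:67950107-67950896 in Tmem178b (1.02), chr4:157821142-157821794 (0.953), chr10:64431580-64432118 (1.29) and chr10:98550454-98553010 (1.84).

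Other PAE libraries stood apart in height at single regions. PAE replicate 1 did at chr9:13572223-13572849 (0.830), chr11:27028596-27029141 (0.604) and chr15:31898619-31899234 (2.26). PAE replicate 3 did at chr19:51585472-51586347 in Cdh13 (1.00), PAE replicate 4 at chr6:97981432-97982019 in Kcnh5 (0.756), PAE replicate 9 at chr6:110458145-110458674 (0.515) and PAE replicate 10 at chr3:79075055-79075538 (0.573). Outside the PAE group, CON replicate 6 was highest at chr15:31898619-31899234 (3.05), CON replicate 3 was the only CON library without a peak at chr9:15798422-15799049 (floor, 0.438), and PF replicate 10 was highest at chr19:51860809-51861508 in Cdh13 (0.878).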

How the results depend on the processing

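The number of PAE-lost regions depended on how calls were counted, and settings that gave a like number often gave other regions. Of the 743, a stricter limit left 34 and a looser one (4, 6 and 6 libraries) gave 5788. A coverage of 50% gave 480, equal peak numbers 327, litters with either littermate 1351 and with both 714 (29 shared with the 743), and a q-value below 0.01 694 (423 shared). Both litter rules set other limits, which by themselves kept out most of the 743. Without lane 7 there were 617 (427 shared). Within 1 labelled sex the limits were 1 PAE and 4 CON and PF libraries of 5, which are other shares than in the main rule. These limits gave 619 in libraries labelled female (140 shared) and 1328 in those labelled male (259 shared). Added after seeing the data, the 12 libraries whose X and Y went with the label gave 294, leaving out PAE replicate 2 with the limit of 3 kept gave 1617, and equal peaks gave 419 for CON-lost and 265 for PF-lost regions. Keeping the limit of 3 with 1 PAE library fewer could only raise the number. Leaving out 1 library with the limits as shares, which tightens them, gave 287 to 551 (385 to 539 without a CON, 414 to 495 without a PF and 287 to 551 without a PAE library). The PAE vs CON call at FDR 0.05 (limma) was 1 region. It was 0 with no lane term, with a pseudocount of 0.1, with quantile normalization, without the libraries of lane 7 and among the regions called in all 30 libraries. Leaving out 1 library gave 0 to 1. Over the fits of all 352026 regions, 20157 to 29815 had an unadjusted p under 0.05 for PAE vs CON (limma). PAE vs PF and PF vs CON stayed at 0 in all fits run. In the fits of all 352026 regions, 12997 to 17275 and 17458 to 27016 had an unadjusted p under 0.05 (limma). Regions associated with lane numbered 113, 6 with quantile normalization, 863 among regions called in all 30 libraries, and 18 to 8615 when 1 library was left out (8615 without PAE replicate 3). The cause of these changes was not tested. Differences at the named regions kept their sign in all 1496 refits. The rule chose these regions for few PAE calls, so the sign was largely set by that choice and nothing is read from it. The refits moved 49 differences by more than the spread: all 44 with a pseudocount of 0.1 in place of the floor, which ran from -3.37 to -0.76, and 5 others.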
